A study of Homo sapiens with 6 samples.

Results

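The genes described here make, move and consume lactate and pyruvate. They are the lactate dehydrogenase subunits LDHA and LDHB, the monocarboxylate transporter SLC16A7, its family's chaperone BSG, and MPC1 and MPC2, the subunits of the mitochondrial pyruvate carrier. Of 8 genes on the list, these 6 had a probe set in the array's annotation, each exactly 1, out of 18404 genes with a probe set of their own. SLC16A1 and SLC16A3 were not analysed here. The genes were listed by symbol for their function, and the difference between the sugars was not part of the rule. Earlier results of these data were known when they were listed, so counts over them are a description.

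All 6 arrays held RNA from MDA-MB-231, an established line from a triple-negative breast cancer. The fructose group was 3 cultures grown in DMEM with 10 mM fructose, and the glucose group was 3 cultures grown in DMEM with 25 mM glucose. Each culture was a separately adapted batch kept on its sugar for 25 days and harvested near 70% confluency, roughly 24 hours after its medium was renewed. The series title frames the comparison as restricted glycolysis. Sugar and concentration changed together, so they cannot be told apart. In RNA from a whole culture, fewer expressing cells and less RNA per cell cannot be told apart either.

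Glycolysis ends in pyruvate. Lactate dehydrogenase, a tetramer of LDHA and LDHB subunits, reduces pyruvate to lactate and so restores the NAD+ that glycolysis needs, and the same enzyme runs in reverse where lactate is taken up. LDHA-rich tetramers are linked with lactate production and LDHB-rich tetramers with lactate use. Monocarboxylate transporters of the SLC16 family carry lactate and pyruvate with a proton across the cell membrane, and most of them need an immunoglobulin-like partner, basigin (BSG) or embigin (EMB), to get there. Pyruvate that is not reduced enters mitochondria through a carrier built from MPC1 and MPC2 together. Tumour lines in rich glucose are known for converting much of their pyruvate to lactate.

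Values are RMA intensities on a linear scale, and differences are fructose minus glucose on the log2 scale, tested with limma over 28230 probe sets at an adjusted p of 0.05. None of the 6 genes passed the test. Of all tested probe sets 0.00354% passed, which was 1 probe set, that of TXNIP. At an unadjusted p under 0.05 the count was also 0 of 6, against 13.1% of all probe sets, 7.65% higher and 5.43% lower in fructose. All 6 were bright, and in a fit of bright probe sets alone the count was 1 of 6, LDHA, against 22.1%. The differences ran from -0.16 to 0.13, with 4 genes lower and 2 higher in fructose and a median of -0.11, against 0.02 for the whole table. Of all tested probe sets, 12374 were lower and 15856 higher in fructose. All 6 intervals held 0, and all 6 lay within a 1.5-fold change in either direction. TXNIP, the thioredoxin-interacting protein gene known to follow glucose supply, was the gene that passed. It had 107, 122 and 136 units in fructose and 1639, 1781 and 1656 units in glucose, and fell by 3.80 (SE 0.10, limma adjusted p = 4.70e-05). With no moderation of the variances the difference was the same -3.80, and its adjusted p was 0.088 (unadjusted 3.50e-06).

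**Figure D1:**
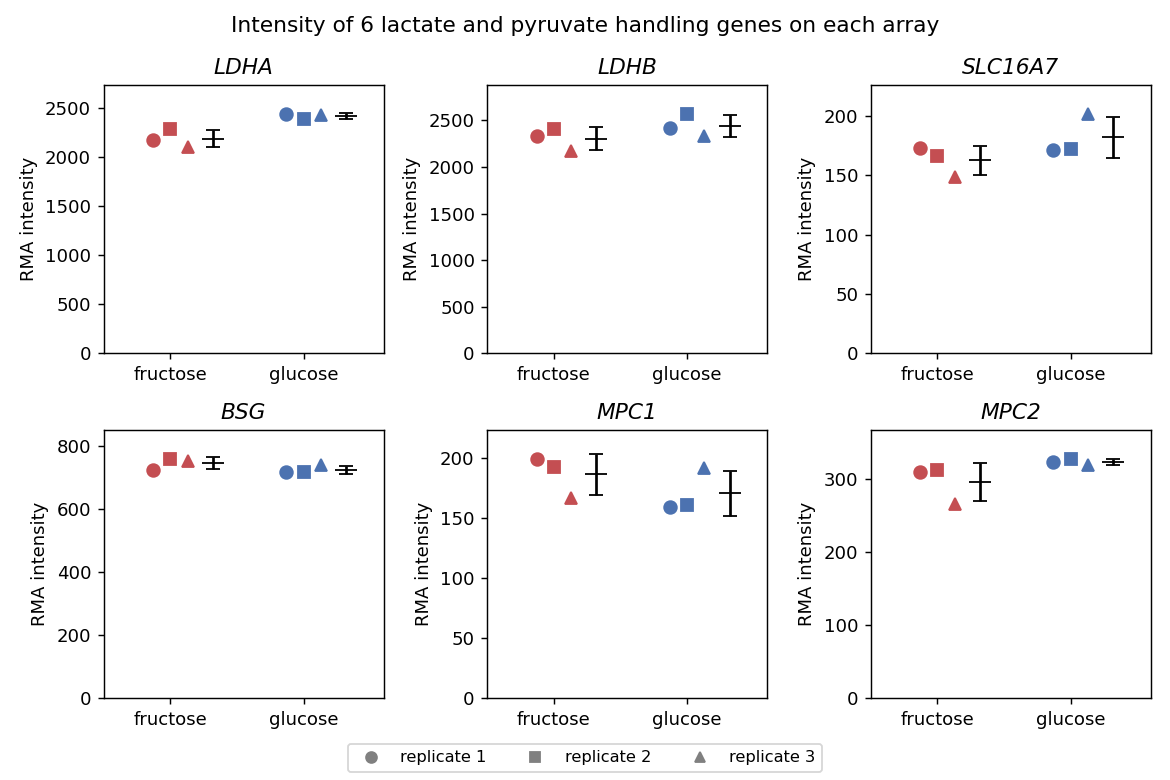
RMA intensity (linear scale, from 0) of LDHA, LDHB, SLC16A7, BSG, MPC1 and MPC2 on each array, fructose in red and glucose in blue, with a marker shape for each replicate and the mean ± SD of 3 arrays in black. The LDHA and MPC2 points of the sugars do not overlap, the other 4 genes' points do, and all gaps are small beside the level of the gene.

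The line's identity was checked against its usual markers. VIM, CD44, EGFR and CAV1, genes of basal-like and mesenchymal breast lines, were all brighter than 90.6% or more of the tested probe sets. Of the luminal markers, ESR1, PGR and FOXA1 were dimmer than the median probe set, while GATA3 was brighter than 67.9%. ESR1 stood at 15.8 ± 3.65 in fructose and 16.3 ± 2.44 in glucose (SD, n = 3 each). The summed intensity of the 4 luminal markers was 109 to 132 on the fructose arrays and 125 to 130 on the glucose arrays. For the 3 measured leukocyte markers it was 40.2 to 44.9 in fructose and 38.4 to 45.6 in glucose, and for the 4 fibroblast markers it was 59.9 to 65.0 in fructose and 63.7 to 69.0 in glucose. None of these markers passed the test. The median intensity of an array was between 31.5 and 33.5, and precision here is limited by having 3 arrays a group.

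The promoters of both dehydrogenase genes are shown because LDHA was the gene of the 6 with the smallest p, and LDHB is the other subunit of the same enzyme. Each window runs from 250 bases before to 50 after a transcription start in RefSeq (GRCh38.p14), LDHA at chr11:18394313-18394612 on the plus strand and LDHB at chr12:21657793-21658092 on the minus strand. Capitals mark ACGTG, a form of the core letters of the element bound by hypoxia-inducible factors, searched on both strands. Other forms of that core were not searched. The E-box CACGTG, which MYC with its partner MAX can bind, contains these letters.
LDHA: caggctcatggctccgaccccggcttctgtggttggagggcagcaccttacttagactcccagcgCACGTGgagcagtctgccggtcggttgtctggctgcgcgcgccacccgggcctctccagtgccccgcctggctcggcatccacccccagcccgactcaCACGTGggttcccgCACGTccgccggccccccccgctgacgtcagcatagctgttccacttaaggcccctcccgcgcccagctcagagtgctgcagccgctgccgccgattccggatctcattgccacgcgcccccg
LDHB: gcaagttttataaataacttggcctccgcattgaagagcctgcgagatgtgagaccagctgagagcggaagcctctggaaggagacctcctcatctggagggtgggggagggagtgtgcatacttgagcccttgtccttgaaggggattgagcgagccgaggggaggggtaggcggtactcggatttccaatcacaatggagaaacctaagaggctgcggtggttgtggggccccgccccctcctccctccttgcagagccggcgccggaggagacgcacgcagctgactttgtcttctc
The printed LDHA window held 3 separate stretches, CACGTG starting 185 and 87 bases before the start, and ACGTG on the opposite strand 73 bases before it. The window at the other LDHA start in RefSeq, chr11:18396101-18396400, held no ACGTG. The LDHB window held no ACGTG on either strand. RefSeq gave 11 windows for the 6 genes, and 9 of them held neither motif. The second window with a match belonged to an alternative BSG start and held CACGTG once. Over 35116 windows of the same length 21.4% held ACGTG and 7.26% held CACGTG. A match describes letters and is no evidence of binding.

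LDHA (probe set 7938777), the subunit that favours lactate formation, had 2169, 2279 and 2104 units in fructose and 2439, 2385 and 2428 units in glucose. The sugars did not overlap, with every fructose value the lower. Mean intensity was 2184 ± 88.6 in fructose and 2417 ± 28.1 in glucose (SD, n = 3 each), a log2 difference of -0.15 (SE 0.07, limma adjusted p = 0.40). In linear terms the estimate was -9.70%, with a 95% interval from -18.9% to 0.524%. LDHA was brighter than 99.2% of probe sets. The unadjusted p was 0.059. It was 0.043 without fructose replicate 2, the fructose array with the highest LDHA value, in a fit where 14% of all probe sets were under 0.05.

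LDHB (probe set 7961693), the subunit of lactate-using tissues such as heart, had 2332, 2405 and 2166 units in fructose and 2417, 2571 and 2335 units in glucose. The groups overlapped, since fructose replicate 2 exceeded glucose replicate 3. The means were 2301 ± 123 in fructose and 2441 ± 120 in glucose (SD, n = 3 each), and the log2 difference was -0.09 (SE 0.08, limma adjusted p = 0.68). The linear interval was -16.7% to 6.59%. Without fructose replicate 3 the log2 difference was -0.04, without glucose replicate 2 it was -0.05, and after a further quantile normalization it was -0.06. RefSeq lists 6 pseudogenes named after LDHA and 3 named after LDHB, and signal from such near copies in these probe sets was not tested.

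The balance of the subunits was followed as LDHA minus LDHB within each array. Because probe sets differ in their response, the level of this difference says nothing about which subunit is more abundant, and only its shift between sugars is described. It was -0.10, -0.08 and -0.04 in fructose and 0.01, -0.11 and 0.06 in glucose. The groups overlapped, with glucose replicate 2 below every fructose array. The means were -0.07 ± 0.03 in fructose and -0.01 ± 0.09 in glucose (SD, n = 3 each), a shift of -0.06. Leaving out glucose replicate 3 gave -0.03, and leaving out glucose replicate 2 gave -0.11.

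SLC16A7 (probe set 7956658) encodes MCT2, a transporter with a high affinity for pyruvate and lactate. It had 173, 166 and 149 units in fructose and 171, 173 and 202 units in glucose. The groups overlapped, with fructose replicate 3 the lowest array and glucose replicate 3 the highest. Mean intensity was 163 ± 12.3 in fructose and 182 ± 17.4 in glucose (SD, n = 3 each), with a log2 difference of -0.16 (SE 0.10, limma adjusted p = 0.53). This value was -0.08 without glucose replicate 3 and -0.10 without fructose replicate 3. Its linear interval, -23.6% to 4.75%, reached the lowest bound of the 6 genes.

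BSG (probe set 8023955), basigin or CD147, escorts several monocarboxylate transporters to the cell membrane. Its values were 726, 761 and 755 in fructose and 720, 718 and 741 in glucose. Fructose replicate 1 lay between glucose arrays, so the groups overlapped. The means were 747 ± 18.7 in fructose and 726 ± 12.8 in glucose (SD, n = 3 each), and the log2 difference was 0.04 (SE 0.06, limma adjusted p = 0.83). Its linear interval was -7.18% to 14.1%. BSG had the smallest spread between arrays of one sugar of the 6 genes, with a within-group SD of 0.031 (log2) against a median of 0.12 over all tested probe sets. The difference was 0.06 without fructose replicate 1 and 0.02 once arrays were centred on their medians.

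MPC1 (probe set 8130732) had 199, 193 and 167 units in fructose and 159, 161 and 192 units in glucose. The first pair of fructose replicates stood above all glucose arrays, and the third replicate of each sugar broke the order. Mean intensity was 186 ± 17.1 in fructose and 170 ± 18.5 in glucose (SD, n = 3 each), a log2 difference of 0.13 (SE 0.11, limma adjusted p = 0.66). The linear interval ran from -8.17% to 30.2%, the widest of the 6. The log2 difference was 0.22 without glucose replicate 3, 0.21 without fructose replicate 3, 0.08 without fructose replicate 1, 0.08 without glucose replicate 1 and 0.09 without glucose replicate 2.

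MPC2 (probe set 7922095), its partner in the carrier, had 309, 313 and 266 units in fructose and 324, 327 and 319 units in glucose. The sugars did not overlap either, fructose being lower, with fructose replicate 3 well apart from the other two. The means were 296 ± 25.8 in fructose and 323 ± 4.23 in glucose (SD, n = 3 each), with a log2 difference of -0.13 (SE 0.08, limma adjusted p = 0.55) and a linear interval of -20.2% to 4.47%. Without fructose replicate 3 the log2 difference was -0.06. LDHA and MPC2 were thus the 2 of 6 genes whose sugars did not overlap, both lower in fructose. Over all probe sets 20.2% did not overlap, 8.81% with fructose lower. All 6 genes were bright, and this share was not computed for bright probe sets alone.

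Within each array MPC1 minus MPC2 was -0.63, -0.70 and -0.68 in fructose and -1.03, -1.03 and -0.74 in glucose. All fructose values lay above all glucose values, although glucose replicate 3 was close. LDHA minus LDHB did not separate in this way. How often other pairs separate was not computed, and for single probe sets the share was 20.2%. The means were -0.67 ± 0.03 in fructose and -0.93 ± 0.17 in glucose (SD, n = 3 each), a shift of 0.26 towards MPC1. With 1 array left out the shift was between 0.21 and 0.36, the highest without glucose replicate 3. The shift is a description and was given no test, and neither gene of the pair passed one.

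**Figure D2:**
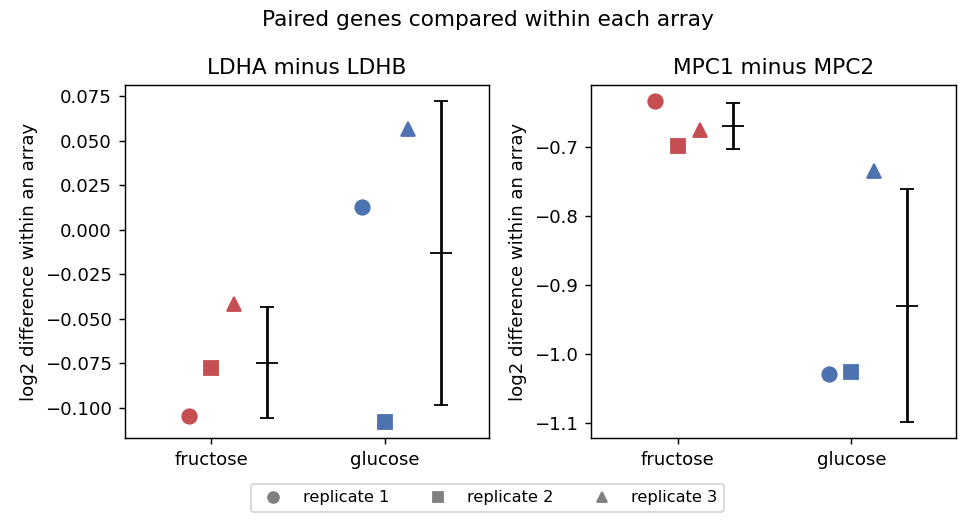
Log2 difference between paired genes within each array, LDHA minus LDHB on the left and MPC1 minus MPC2 on the right, with fructose in red, glucose in blue and the mean ± SD of 3 arrays in black (the axes do not start at 0). The LDHA and LDHB values overlap between sugars, whereas MPC1 minus MPC2 lies between -0.70 and -0.63 in fructose and between -1.03 and -0.74 in glucose.

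For 5 of the 6, all but BSG, fructose replicate 3 was the lowest array in fructose. The same array was the lowest for 35.1% of all tested probe sets and for 43.2% of the bright ones, those above the median brightness in at least 1 sugar. Set against each gene's mean in glucose, the 6 genes had a median of -0.07, -0.03 and -0.19 (log2) for fructose replicates 1, 2 and 3, and of -0.01, -0.02 and 0.02 for the glucose replicates. LDHA had a within-group SD of 0.043 (log2), in the lowest 5.88% of tested probe sets, whereas that of MPC1 was 0.14 and above the median of 0.12.

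**Figure D3:**
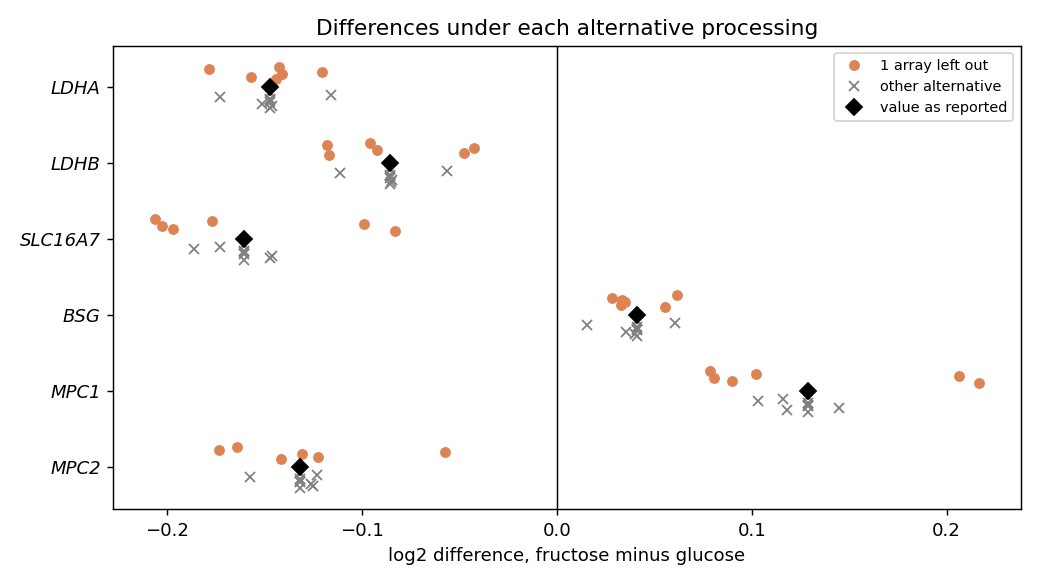
Log2 difference between fructose and glucose for the 6 genes, with the value as reported (black diamond), the 6 fits that leave out 1 array (orange points) and 9 other alternatives (grey crosses). Every gene stays on its own side of 0, and LDHA lies between -0.18 and -0.12.

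Genes around these 6 were grouped into 8 lists with 63 members, of which 55 were measured. None passed over all probe sets with limma. At an unadjusted p under 0.05 there were 11, with 5 higher and 6 lower in fructose, which is 20% of the lists against 13.1% of all probe sets. Among bright probe sets alone the share was 10 of 35 list genes (28.6%) against 22.1%. The lists were chosen with earlier results of these data known, so these shares are a description and no independent test. Of the 11, the 6 genes EMB, SLC4A4, PDK1, PDK4, EPAS1 and MYC stayed under 0.05 in each fit that left out an array, and DLD, PCK2, GPD2, GOT1 and SLC25A12 did not. The median difference of all 55 measured list genes was 0.02, close to the 0.02 of the whole table.

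Among the 4 other lactate dehydrogenase genes none reached an unadjusted p of 0.05, and the median difference was -0.04, between -0.14 and 0.03 with 1 array left out. All 4 were dim, from brighter than 5.36% to brighter than 41.9% of probe sets. LDHC, the testis subunit, had 4.49 ± 0.355 units in fructose and 4.83 ± 0.491 in glucose (SD, n = 3 each), and LDHD, the mitochondrial enzyme for D-lactate, had 22.5 ± 3.57 in fructose and 23.0 ± 1.51 in glucose. LDHAL6A, a testis relative of LDHA, differed by 0.08 (log2), between 0.01 without glucose replicate 1 and 0.16 without glucose replicate 2.

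Of the 11 other SLC16 transporters 7 were measured, and none reached an unadjusted p of 0.05. Their differences ran from -0.21 to 0.11 with a median of 0.02, which was -0.02 without glucose replicate 2 and 0.05 without fructose replicate 3. SLC16A14, an orphan of the family, differed by -0.21 (SE 0.11), SLC16A10, an aromatic amino acid carrier, by 0.11 (SE 0.07), and SLC16A9 by 0.10 (SE 0.08). SLC16A14 stood at -0.11 without glucose replicate 2, and SLC16A9 at 0.05 without fructose replicate 2.

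EMB had the smallest p of all list genes. Embigin is the partner that MCT2, the product of SLC16A7, uses in preference to basigin. EMB had 62.7, 68.1 and 61.2 units in fructose and 90.7, 102 and 88.1 units in glucose, so every fructose array lay well below every glucose array. The log2 difference was -0.55 (SE 0.09, 95% interval -0.75 to -0.35, limma adjusted p = 0.13). It passed in 3 of 15 alternatives. Its limma adjusted p was 0.034 among bright probe sets alone, 0.022 with an intensity trend and robust variances, and 0.043 with 16 added before log2. Many more probe sets passed in those fits than the 1 of the main fit. They numbered 299 of 14385 among bright ones and 473 with the trend. Over all alternatives the adjusted p of EMB was 0.022 to 0.37. BSG differed by 0.04 on the same arrays, and NPTN, the remaining member of the basigin family, by 0.01 (SE 0.08). The other 4 genes of this list were dim, with SLC5A8, a sodium-coupled lactate carrier, at 0.11 and MPC1L, a testis relative of MPC1, at 0.16. Without glucose replicate 2 these were 0.05 and 0.04, and leaving out fructose replicate 2 or 3 gave 0.26 or 0.10 for MPC1L. In this list 1 of 6 genes reached an unadjusted p of 0.05, against 13.1% of all probe sets.

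Against 13.1% of all probe sets, 1 of 4 measured genes in the acid extrusion list reached an unadjusted p of 0.05. This was SLC4A4, a sodium bicarbonate cotransporter, with 32.1, 26.4 and 30.2 units in fructose and 21.5, 24.8 and 18.4 units in glucose. The probe set was dim, brighter than 44.4% of the others. The sugars did not overlap, and the difference was 0.46 (SE 0.13, limma adjusted p = 0.23), or 0.28 with 16 added before log2. CA2, a carbonic anhydrase, differed by 0.14, with 0.07 without fructose replicate 1, 0.08 without glucose replicate 1 and 0.24 without glucose replicate 2. SLC4A7, another bicarbonate carrier, differed by -0.07, and by -0.0047 without fructose replicate 1.

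Pyruvate dehydrogenase turns mitochondrial pyruvate into acetyl-CoA, and the PDK kinases switch it off. In this list 3 of 10 measured genes reached an unadjusted p of 0.05, all lower in fructose, and the median difference was -0.03. That p was reached by 13.1% of all probe sets, 5.43% with fructose lower. Among bright probe sets alone it was reached by 22.1%, but PDK4, among these 3 genes, was too dim for that fit. The 3 of 10 therefore has no like share there. PDK1 had 154, 156 and 169 units in fructose and 180, 197 and 192 units in glucose, a difference of -0.25 (SE 0.07, limma adjusted p = 0.25). PDK4, which was dim, differed by -0.37 (SE 0.09), or by -0.22 with 16 added before log2, and DLD, the lipoamide dehydrogenase subunit, by -0.21 (SE 0.07). The kinases did not all point the same way, since PDK3 differed by 0.20 (SE 0.10) and PDK2 by 0.06 (SE 0.08). The other subunits PDHA1, PDHB, DLAT and PDHX differed by -0.03, -0.04, -0.01 and -0.09.

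Among 9 measured genes for other sources and fates of pyruvate, 8 were higher in fructose and 1 was lower. Of all 28230 tested probe sets, 15856 were higher and 12374 lower. The median of the list was 0.10 (0.06 without glucose replicate 1), against 0.02 for the whole table. An unadjusted p of 0.05 was reached by 1 gene of the list, against 13.1% of all probe sets. PCK2, the mitochondrial phosphoenolpyruvate carboxykinase, had 145, 97.7 and 145 units in fructose and 91.2, 95.7 and 103 units in glucose. Fructose replicate 2 lay among the glucose arrays, and the difference was 0.40 (SE 0.16, limma adjusted p = 0.36). PC, which carboxylates pyruvate to oxaloacetate, differed by 0.20 (SE 0.09) and PCK1, the cytosolic carboxykinase, by 0.19 (SE 0.13). PCK1 was dim, with 0.09 without fructose replicate 1, 0.13 without glucose replicate 3, 0.30 without glucose replicate 1 and 0.08 with 16 added before log2. PKM, which makes most of the pyruvate in tumour lines, had 2627 ± 184 units in fructose and 2594 ± 50.1 in glucose (SD, n = 3 each), a difference of 0.02.

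The NADH shuttles compete with lactate dehydrogenase for cytosolic NADH. Of 9 genes, 1 was higher and 2 were lower in fructose at an unadjusted p under 0.05. Of all probe sets 7.65% were higher and 5.43% lower at that p. In the fit of bright probe sets alone, for which not all 9 genes were bright enough, 22.1% reached it. The median of the list was -0.03, between -0.07 and 0.01 with 1 array left out. GPD2, the mitochondrial enzyme of the glycerol phosphate shuttle, had 187, 202 and 160 units in fructose and 215, 228 and 274 units in glucose. Its groups did not overlap, and the difference was -0.38 (SE 0.12, limma adjusted p = 0.28). SLC25A12, an aspartate-glutamate carrier, differed by -0.26 (SE 0.10), and by -0.16 without fructose replicate 3. GOT1, the cytosolic aspartate aminotransferase, differed by 0.22 (SE 0.07).

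Transcription factors known to act on these genes were the last list, in which 2 of 6 reached an unadjusted p of 0.05, both higher in fructose. The share was 13.1% over all probe sets, 7.65% with fructose higher, and 22.1% among bright probe sets alone. HIF1A, a main activator of LDHA and PDK1 in hypoxia, had 883, 848 and 822 units in fructose and 877, 1022 and 872 units in glucose. Its groups overlapped, and the difference was -0.12 (SE 0.09, limma adjusted p = 0.62), or -0.04 without glucose replicate 2, the highest array. MYC, which can activate LDHA through E-boxes such as those printed above, had 1153, 896 and 1161 units in fructose and 778, 882 and 780 units in glucose. The difference was 0.39 (SE 0.12, limma adjusted p = 0.26). A link between MYC and LDHA was not tested. EPAS1, which encodes HIF-2-alpha, differed by 0.45 (SE 0.11, limma adjusted p = 0.20).

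**Figure D4:**
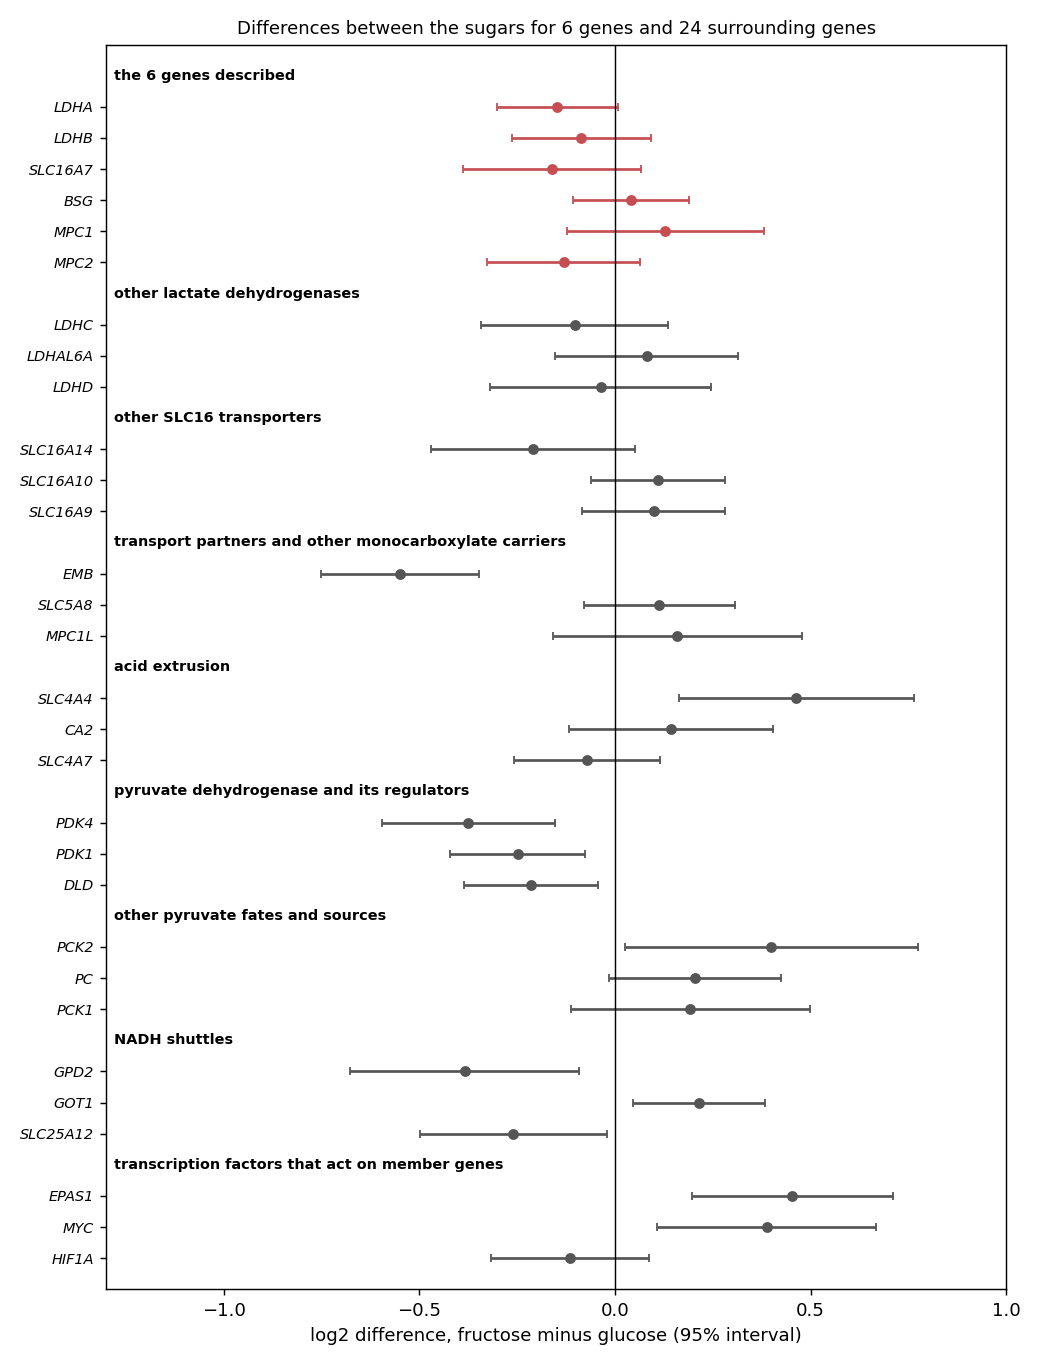
Log2 difference between fructose and glucose (fructose minus glucose) with its 95% interval for the 6 genes in red and for the 3 genes of smallest p in each of 8 surrounding lists in grey. All red intervals cross 0, and EMB, at -0.55, lies farthest from it.

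The genes whose values followed LDHA most closely were TMUB1, OPA1 and RRAGA. Likeness was the root mean square difference of log2 values over the 6 arrays, each gene centred on its own mean, among 11058 other genes above the median brightness. It was 0.0095 for TMUB1, 0.011 for OPA1 and 0.013 for RRAGA, against a median of 0.13. TMUB1 encodes a ubiquitin-like membrane protein, OPA1 a mitochondrial fusion GTPase and RRAGA a GTPase of amino acid signalling. They differed by -0.14, -0.13 and -0.13 between the sugars, values near that of LDHA because the choice of genes by likeness fixes them.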

How the data were processed

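The authors deposited a table of intensity by probe set and array. Per the submitters' processing notes it came from RMA, which subtracts background, normalizes arrays to each other and combines probes. The version and program were not given in the sources used here. Intensities from 2.15 to 9287 were read as linear, and log2 was taken without a pseudocount. Of 32321 rows, 4091 with identifiers below the lowest annotated one were taken as controls and left out. A gene was represented by its brightest probe set with a single symbol.

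Fructose minus glucose was fitted with limma 3.58.1 in R 4.3.3 (lmFit, eBayes, two-sided, no covariate, Benjamini-Hochberg over 28230 probe sets). Intervals are 95%. The members and lists were chosen with earlier results of these data known. Named genes were all members, the 3 genes of smallest p in each list, TXNIP and the 3 genes closest to LDHA. PDK2, PDK3, PDHA1, PDHB, DLAT, PDHX, NPTN and PKM were added after their values were seen, and marker genes serve as a check. Promoters came from RefSeq and matched all 6 genes by symbol. Alternatives covered a replicate block, each array left out, normalization, variance moderation, array weights, dim probe sets, a pseudocount and controls.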

Additional observations from a re-analysis of the deposited data

How the results depend on the processing

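All 6 genes kept their sign and stayed short of the threshold in all 15 alternatives. Their lowest adjusted p was 0.089, for LDHA with an intensity trend and robust variances. With 1 array left out LDHA ran from -0.18 to -0.12, LDHB from -0.12 to -0.04, SLC16A7 from -0.21 to -0.08, BSG from 0.03 to 0.06, MPC1 from 0.08 to 0.22 and MPC2 from -0.17 to -0.06. At an unadjusted p under 0.05, 1 gene of the 6, LDHA, passed in several alternatives. These were bright probe sets alone, an intensity trend and robust variances, no moderation, array weights and 16 added before log2. In that order, the share under 0.05 was 22.1% of the bright probe sets, then 15%, 12.6%, 13.9% and 15.2% of all. With an array left out, 0 to 1 of the 6 passed. Over the whole table, calls numbered 299 of 14385 (2.08%) among bright probe sets alone, 473 with the trend, 202 with 16 added, 0 with no moderation (3565 at an unadjusted p under 0.05) and 1 in the other alternatives. With no moderation TXNIP kept its difference of -3.80 with an adjusted p of 0.088. With 1 array left out LDHD ran from -0.16 to 0.033 and was above 0 in 3 of the 6 fits, those without fructose replicate 1, fructose replicate 2 or glucose replicate 2. Why these values moved was not tested.

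Deviations of same-numbered arrays from the mean of their sugar correlated at -0.03, -0.02 and -0.05 over all tested probe sets. Whether same-numbered arrays shared any handling was not tested beyond this. With the replicate block 1 probe set and 0 of the 6 genes were called, LDHA had -0.15 with an adjusted p of 0.57, and 3019 probe sets had an unadjusted p under 0.05, against 3694 without it. The mean over a gene's probe sets could not differ, since each of the 6 genes has 1, and the balance of SLC16A1 and SLC16A3 was not run. With 3 arrays a group, the median SE of a log2 difference was 0.095, which limits what differences of this size can show.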
